A study of Mus musculus with 49 samples.

Results

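Control mice of a transgenic sickle cell study, named HbAA-BERK, were compared at 5 months of age (12 mice) and at 2 months of age (13 mice) by RNA sequencing of the dorsal root ganglion, with treatment as a term. The members are the 25 control libraries among the 48 libraries used here, of 49 in the labels, and they were chosen by genotype, age and treatment from the sample labels, not by any measured value. HbAA-BERK mice make normal human hemoglobin A from transgenes, make no murine globins, and were bred on the mixed background of the sickle mice, so the comparison of ages is one within transgenic animals and not within wild type mice. The 4 groups were 2 months in normoxia (AA_2M_Norm, 6 mice kept in room air), 2 months after hypoxia/reoxygenation (AA_2M_HR, 7 mice), 5 months in normoxia (AA_5M_Norm, 6 mice) and 5 months after hypoxia/reoxygenation (AA_5M_HR, 6 mice). Hypoxia/reoxygenation (H/R) consisted of 8% oxygen for 3 h and room air for 1 h, given again a week later, and the ganglia were collected a day after the last exposure. The study chose these ages as young and adult stages and used the control mice as age-matched references for the evolution of pain in sickle mice.

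The named genes held 12.1 to 24.8 M reads per library (M for 1e6), with group medians of 15.5 to 17.9 M. Every group held reads of all 13 nociceptor markers, with a summed level of 3331 to 5226 CPM per library. CPM is the reads of a gene scaled to a library of 1e6 reads. Every group also held reads of all 15 myelinating Schwann cell markers, so the labelled tissue was matched by its defining cell types. Ddx3y, a Y-linked gene, had 38.1 to 84.0 CPM and Xist 0 to 2.03 CPM in all 25 libraries, and Alb, the liver gene of albumin, was over 20 CPM in 4 of them. The libraries separated by replicate number. Replicates 1 to 3 of each group (1 to 4 in AA_2M_HR) had first principal component values of -31.0 to -3.57, and all numbered libraries above them had values of 4.71 to 41.0, on a component that held 27.6% of the variance. Both ages were present on both sides, with 7 and 6 libraries at 2 and 5 months among the lower numbers and 4 and 4 among the higher. The higher numbers were replicates 5 to 7 of AA_2M_HR, 4 to 6 of AA_5M_HR, and only replicate 4 of each normoxia group. Values within the higher numbers, as computed here, thus rest mostly on H/R libraries, and in them the split and the treatment cannot be told apart. In the normoxia groups 4 libraries carry no replicate number of their own and were used as members of their group only. All 4 had first principal component values inside the range of the higher numbers, 4.71 to 41.0. They were left out of the values within each side, so the excess of H/R libraries among the higher numbers follows in part from leaving them out. Values of several genes and lists are also given within each side of this split, an alternative chosen after seeing the data.

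The dorsal root ganglion holds the cell bodies of sensory neurons, which carry touch, position, heat and pain signals from the body to the spinal cord. Around the neurons lie satellite glia, and along their axons lie Schwann cells, which in large fibres wrap the axon in myelin, a stack of membrane rich in galactolipids and in a few abundant proteins. In rodents the ganglia grow, and myelin is laid down, mostly in the first weeks after birth. In bulk tissue of this kind, fewer cells of a type and less RNA per cell cannot be told apart.

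No gene passed the test for age. Of 15607 genes tested by the edgeR quasi-likelihood test, 0 were higher and 0 were lower at 5 months once p-values were adjusted by Benjamini-Hochberg with a limit of 0.05, and the smallest adjusted p was 0.134. At an unadjusted p under 0.05 there were 257 genes with higher values at 5 months (1.65% of those tested) and 256 with lower values (1.64%), which made 513 in all (3.29%). DESeq2 called 3 genes, and limma on the authors' FPKM values called 0 under each of 3 settings. By edgeR 1 gene was called with the replicate number split as a term, 1 with a covariate of Y-linked reads and 34 with 2 surrogate variables. All log2 fold changes below are 5 months over 2 months, so that a negative value is a lower level in the older mice.

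The intervals bound the differences of most genes. The 95% interval of the log2 fold change lay within a 1.5-fold difference in either direction for 13504 genes (86.5%) and within a 2-fold difference for 15015 genes (96.2%), and the median standard error was 0.0963. The median log2 fold change over all genes was 0.00, with 51.9% of genes above 0. With a test that called no gene, the genes named below were chosen after their values were seen, from those with the smallest p and from gene lists, and their differences are given as values with intervals.

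**Figure D1:**
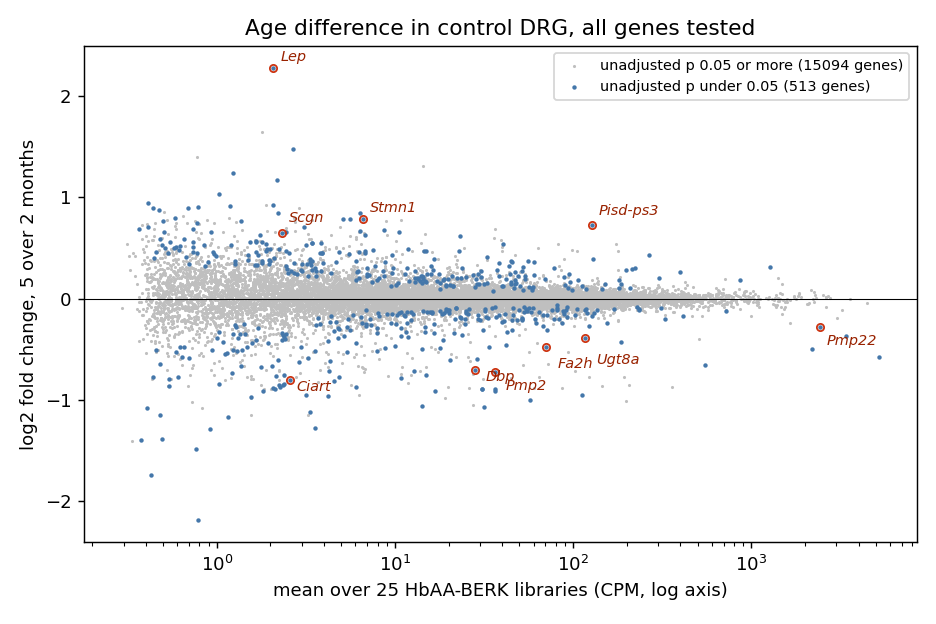
Log2 fold change of 5 over 2 months in HbAA-BERK mice (vertical axis) against the mean level over 25 libraries in CPM (log axis), 1 point per gene tested. The 513 genes with an unadjusted p under 0.05 are blue and lie on both sides of 0, and the genes circled in red are named in the text.

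Fa2h had the smallest p of all genes. It encodes fatty acid 2-hydroxylase, the enzyme that makes the 2-hydroxylated fatty acids of myelin galactolipids, and lies on chr8:111345138-111393821 (mm10). Its level ranged from 62.6 to 106 CPM (median 83.3) in the 13 libraries at 2 months and from 48.0 to 74.9 CPM (median 55.8) in the 12 libraries at 5 months. The ranges of the ages overlapped, but the 5 month median lay under every library at 2 months. The log2 fold change was -0.47 (SE 0.0856, 95% interval -0.65 to -0.30, edgeR adjusted p = 0.134). By treatment the value was -0.41 in normoxia and -0.54 after H/R, and by replicate number it was -0.52 in the lower and -0.44 in the higher numbers. Under 14 other settings it lay between -0.49 and -0.43 with adjusted p from 5.85e-05 to 0.653, and DESeq2, a covariate of Y-linked reads and surrogate variables called it. Leaving out 1 library at a time gave adjusted p from 0.032 to 0.31, with a call of Fa2h without replicate 3 of AA_2M_HR, replicate 3 of AA_2M_Norm, replicate 4 of AA_5M_HR or replicate 5 of AA_5M_HR.

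The marker genes of myelinating Schwann cells had log2 fold changes below 0 throughout. Of 15 members, all 15 had a log2 fold change below 0, where 48.1% of all genes did, and 5 had an unadjusted p under 0.05, all of them lower (1.64% of all genes). The median of the list was -0.19, from -0.22 to -0.14 under the other settings and from -0.26 to -0.16 with 1 library left out, and it was -0.19 in normoxia and -0.19 after H/R. Within the lower replicate numbers the median was -0.16 and within the higher numbers -0.28. None of the 15 passed the adjusted test, and the list was not given a test of its own.

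Among its members Ugt8a, the transferase that adds galactose to ceramide and so makes the myelin lipid galactosylceramide, had 107 to 197 CPM (median 119) at 2 months and 66.0 to 128 CPM (median 98.4) at 5 months. The groups overlapped, and the log2 fold change was -0.39 (95% interval -0.62 to -0.17, unadjusted p = 0.00157).

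Pmp22, which encodes the peripheral myelin protein whose gene dose causes hereditary neuropathies in humans, had 2008 to 3090 CPM (median 2692) at 2 months and 1909 to 2527 CPM (median 2118) at 5 months. It had the smallest p of the 15 list members, with a log2 fold change of -0.29 (SE 0.0699, 95% interval -0.43 to -0.14, edgeR adjusted p = 0.795). Mag, an adhesion protein of the inner myelin layer, had 29.8 to 69.7 CPM (median 46.6) at 2 months and 28.5 to 55.9 CPM (median 37.7) at 5 months, and most of both ranges overlapped. Its log2 fold change was -0.31 and that of Mal, a proteolipid of myelin membrane rafts, was -0.21. Other members had intervals that included 0. Mbp, which compacts the cytoplasmic faces of myelin, had a log2 fold change of -0.19 (95% interval -0.47 to 0.09) and Prx, a scaffold of the outer myelin layer, had -0.10. Egr2, the transcription factor that switches on the myelin program, had -0.26 (95% interval -0.56 to 0.03). Pmp2, a fatty acid binding protein of peripheral myelin that is no member of the list, had -0.72 (95% interval -1.22 to -0.23).

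**Figure D2:**
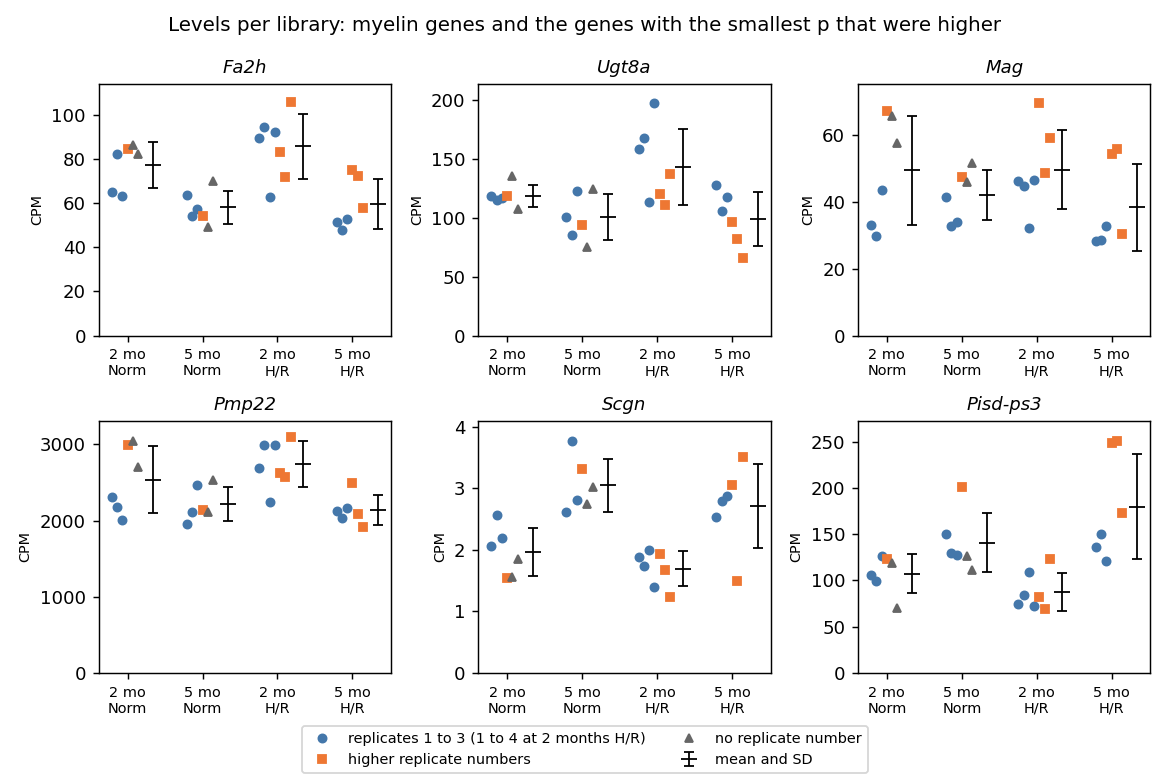
Level in CPM (vertical axes from 0) of 4 myelin genes and of Scgn and Pisd-ps3 in each library, by age and treatment, with the group mean and SD as bars and the replicate number shown by colour and shape. Fa2h medians were 82.3 and 55.8 CPM at 2 and 5 months in normoxia and 89.5 and 55.2 CPM after H/R, with overlap of single libraries.

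Markers of another tissue also had negative values. All 9 skeletal muscle markers had a log2 fold change below 0, with a median of -0.88 and none at an unadjusted p under 0.05, and their summed level ranged from 156 to 5168 CPM (median 1733) at 2 months and from 246 to 1910 CPM (median 795) at 5 months. Acta1, skeletal muscle actin, was present in every library, at 39.7 to 1394 CPM. Markers of non-myelinating and immature Schwann cells had a median of -0.03 with 6 of 8 below 0, and markers of satellite glia had -0.01 with 4 of 6 below 0. Markers of central nervous system glia had a median of -0.59 with 3 of 4 tested below 0, from -1.16 to -0.20 with 1 library left out. Markers of pericytes and smooth muscle had -0.26 with 6 of 8 below 0. The part of muscle tissue or of these cell types in the myelin values was not tested.

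Genes of the basement membrane, the sheet of laminin and type IV collagen that surrounds Schwann cells and vessels, also had mostly lower values. Of 9 members, 8 had a log2 fold change below 0 (48.1% of all genes) and 4 had an unadjusted p under 0.05, all lower (1.64% of all genes), with a list median of -0.19. These 4 were Col4a1 (-0.24, 95% interval -0.41 to -0.07), Col4a2 (-0.20), Lama2, the laminin chain of the Schwann cell basement membrane (-0.22), and Lamc1 (-0.16). Within the lower and the higher replicate numbers the median was -0.19 and -0.17. The values were unlike in the treatments. In normoxia 9 of 9 were below 0 and 8 had an unadjusted p under 0.05 (background 4.39% of 15161 genes in either direction), with a median of -0.34, and after H/R 5 of 9 were below 0 and 0 had such a p by edgeR, with a median of -0.00. In the test of the difference between treatments 4 of 9 had an unadjusted p under 0.05, all positive (background 3.02%), from 2 without replicate 4 of AA_2M_Norm to 7 with another library left out, and 0 an adjusted one, with a smallest adjusted p of 0.110 over all genes.

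Among enzymes that act on the matrix, Lox, which cross-links collagen and elastin, had a log2 fold change of -0.46 (95% interval -0.71 to -0.20). Its level was 33.3 to 71.9 CPM (median 45.2) at 2 months and 24.3 to 46.7 CPM (median 33.9) at 5 months, with overlap. Values of the wider matrix list were nearer 0. Of 18 collagen and matrix genes 13 were below 0 with a median of -0.07. At an unadjusted p under 0.05 there was 1, Col14a1 (-0.23), which was lower (1.64% of all genes). In normoxia 17 of 18 were below 0 with a median of -0.21, and after H/R 9 of 18 with a median of 0.02. Col1a1, the main chain of type I collagen, had -0.19 (95% interval -0.59 to 0.21), and its sign turned with the replicate number as a block. It had 0.18 within the lower and -0.58 within the higher replicate numbers. Id1 and Smad7, both of which are induced by signals of the TGF-beta and BMP family, had -0.35 (95% interval -0.53 to -0.16) and -0.29 (95% interval -0.44 to -0.14).

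Clock genes, which cycle over the day in most tissues, formed the other list with 5 members at an unadjusted p under 0.05, all lower (1.64% of all genes). Of 16 members 12 had a log2 fold change below 0 (48.1% of all genes), and the list median was -0.11. The loop runs from the activators Clock and Arntl, which bind the E-box, through Per, Cry and Nr1d genes, which repress, to output genes such as Dbp, whose protein binds the D-box. To show these elements, the 250 bases before the RefSeq transcription start (GRCm38.p6) are printed for Ciart and Per3, 5′ to 3′ on the strand of the gene. The number of matches in the windows of other members is not given here. The E-box (CACGTG) is in capitals for Ciart (chr3:95882229-95882478, minus strand). The D-box (TTATGTAA) is in capitals for Per3 (chr4:151044666-151044915, minus strand).
Ciart: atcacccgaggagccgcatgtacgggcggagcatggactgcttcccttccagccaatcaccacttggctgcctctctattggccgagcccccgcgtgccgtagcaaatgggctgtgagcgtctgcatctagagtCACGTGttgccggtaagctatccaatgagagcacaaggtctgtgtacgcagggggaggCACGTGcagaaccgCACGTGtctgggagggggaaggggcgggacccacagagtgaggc
Per3: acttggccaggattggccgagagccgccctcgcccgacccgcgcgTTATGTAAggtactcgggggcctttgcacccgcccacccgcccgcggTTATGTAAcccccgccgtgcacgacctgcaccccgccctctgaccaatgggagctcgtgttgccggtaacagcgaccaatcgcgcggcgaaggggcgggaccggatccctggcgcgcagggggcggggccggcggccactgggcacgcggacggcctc

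Ciart held 3 E-boxes, which begin 116, 58 and 44 bases before the start, and Per3 held 2 D-boxes, which begin 205 and 158 bases before it. Both strands were searched. The starts used lie inside the annotated genes, whose upstream ends are chr3:95882257 and chr4:151044707, so part of each window overlaps its gene. Of 32851 RefSeq windows of 250 bases, 6.02% held an E-box and 0.0609% held 3 or more, and 0.819% held a D-box and 0.0183% held 2 or more. Of the 16 clock genes 15 had a window, of which 5 held an E-box and 1 a D-box. A match is a run of letters and not a measured site.

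Ciart, a repressor of the Clock and Arntl pair, had the largest difference of the list in size. Its level was 1.03 to 5.95 CPM (median 2.99) at 2 months and 0.748 to 4.39 CPM (median 1.44) at 5 months, with overlap of the ages in both treatments. The log2 fold change was -0.80 (SE 0.274, 95% interval -1.37 to -0.24, unadjusted p = 0.00693). Dbp had 6.76 to 65.5 CPM (median 34.2) at 2 months and 7.51 to 48.1 CPM (median 18.5) at 5 months, which gave -0.71 (95% interval -1.31 to -0.10). Per2 and Per3, which encode period proteins, had log2 fold changes of -0.50 (95% interval -0.84 to -0.15) and -0.41 (95% interval -0.71 to -0.10). Nr1d2, a nuclear receptor that represses Arntl, had -0.32 (SE 0.0907, 95% interval -0.50 to -0.13), the smallest p of the list.

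Arntl had a value of the opposite sign, 0.44 (95% interval -0.06 to 0.93), which included 0. Cry2 had -0.01 and Clock had 0.10. The differences were uneven over the replicate numbers. Within the lower numbers Ciart had -0.96, Per2 -0.75 and Arntl 0.73, and within the higher numbers Ciart had -0.21, Per2 0.15 and Arntl -0.53. The list median was -0.15 within the lower and -0.14 within the higher numbers. Per1 had -0.60 in normoxia and 0.31 after H/R, and the test of that difference gave 0.91 (SE 0.258, edgeR adjusted p = 0.429).

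**Figure D3:**
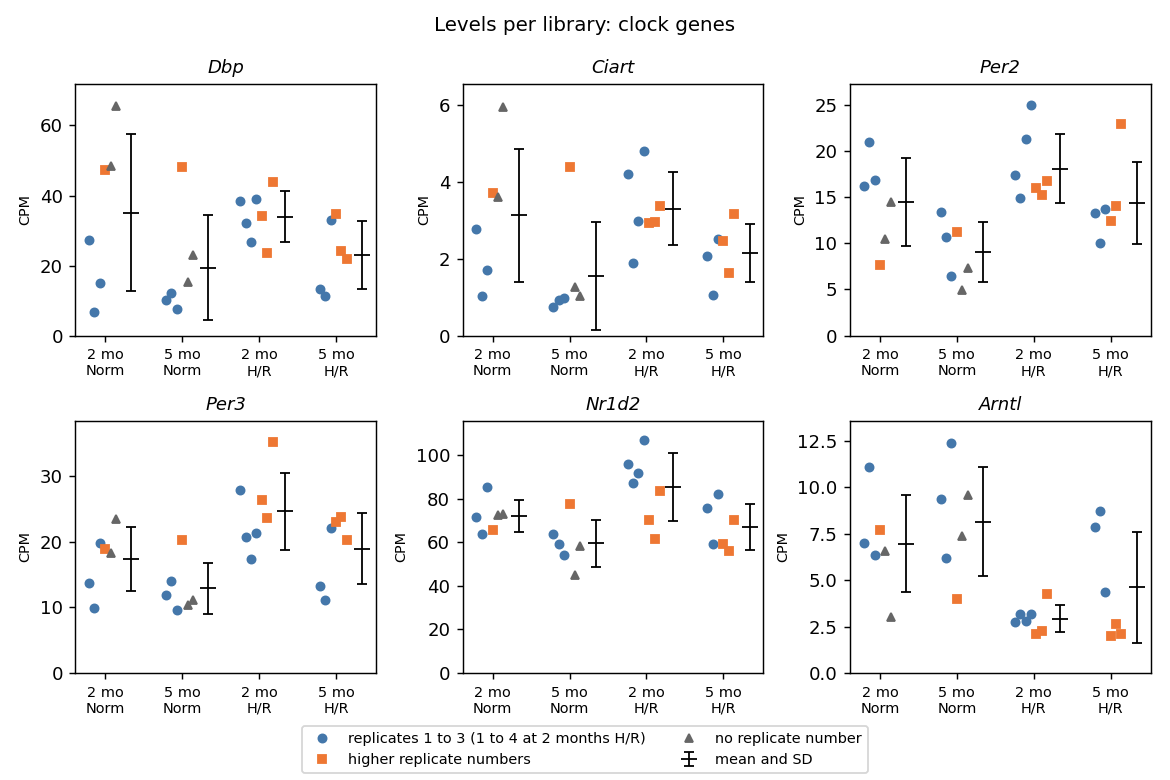
Level in CPM (vertical axes from 0) of 6 clock genes in each library by age and treatment, with the group mean and SD as bars. Dbp, Ciart, Per2, Per3 and Nr1d2 had lower means at 5 months in both treatments and Arntl higher ones, with wide spread inside the groups, and 1 library of AA_5M_Norm (replicate 4) had 4.39 CPM of Ciart where the others had 0.748 to 1.27 CPM.

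Genes induced by glucocorticoid hormone are described beside the clock genes because the hormone also cycles over the day. Of 8 members 6 were below 0 with a median of -0.23, from -0.44 to -0.14 with 1 library left out, and 2 had an unadjusted p under 0.05, both lower (1.64% of all genes). In normoxia the median was -0.55 with 6 of 8 at such a p (background 4.39%), and after H/R it was 0.02 with 0 by edgeR. The 2 genes over both treatments were Zbtb16, a zinc finger factor (-0.78, 95% interval -1.43 to -0.14), and Hif3a, a member of the hypoxia-inducible factor family (-0.71, 95% interval -1.29 to -0.13). Within the lower replicate numbers they had -1.29 and -1.15 and within the higher numbers 0.27 and 0.09, and the list median was -0.74 and 0.24.

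The genes with the smallest p among higher values at 5 months were Scgn and Pisd-ps3. Scgn encodes secretagogin, a calcium-binding protein of some neurons and endocrine cells, and had low counts. It had 1.24 to 2.57 CPM (median 1.85) at 2 months and 1.501 to 3.77 CPM (median 2.84) at 5 months. In normoxia the ages did not overlap, and after H/R 1 older library of 6 lay in the range of the young ones. The log2 fold change was 0.65 (SE 0.124, 95% interval 0.39 to 0.91, edgeR adjusted p = 0.15), 0.53 within the lower and 0.80 within the higher numbers. Scgn was called by DESeq2, with surrogate variables and without replicate 5 of AA_5M_HR.

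Pisd-ps3 is a transcribed pseudogene of the phosphatidylserine decarboxylase gene, and its reads may be shared with near-identical copies, so its value is uncertain. It had 69.2 to 126 CPM (median 99.6) at 2 months and 111 to 250 CPM (median 143) at 5 months, which gave 0.72 (SE 0.142, 95% interval 0.43 to 1.01, edgeR adjusted p = 0.15). Another copy, Pisd-ps1, had 0.32. Chrna3 and Chrnb4, which encode nicotinic acetylcholine receptor subunits that assemble with each other and whose genes are neighbours, had 0.47 (95% interval 0.18 to 0.76) and 0.46 (95% interval 0.20 to 0.73). Prom2, a membrane glycoprotein, had 0.77 and Clk1, a kinase of splicing factors, had 0.32. Higd1a, a mitochondrial protein induced by hypoxia, stood on the other side with -0.27 (95% interval -0.42 to -0.12). It had -0.36 within the lower and -0.25 within the higher replicate numbers. Calls of Higd1a were made with the replicate number split as a term (edgeR adjusted p = 0.0342) and with surrogate variables.

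Markers of nociceptors, the neurons that respond to harmful stimuli, had values near 0. Of 13 members 8 were above 0 and 5 below, 0 had an unadjusted p under 0.05 by edgeR, and the list median was 0.01. For all 13 the 95% interval lay within a 1.5-fold difference. Scn10a, the voltage-gated sodium channel of nociceptors, had 712 to 1231 CPM (median 934) at 2 months and 751 to 1162 CPM (median 1024) at 5 months. Its log2 fold change was 0.01 (95% interval -0.17 to 0.20), which bounds any difference at these ages. Trpv1, the heat and capsaicin receptor, had 0.18 (95% interval -0.01 to 0.37).

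Ion channels had a median of -0.02, with 14 of 20 below 0, 0 at an unadjusted p under 0.05 by edgeR and 18 intervals within 1.5-fold. Markers of large-diameter sensory neurons, which serve touch and position, had a median of -0.04 with 8 of 10 below 0. Nefl, the light chain of neurofilaments, had -0.04 (95% interval -0.24 to 0.15). Pvalb, which encodes parvalbumin and marks muscle spindle afferents, had the only unadjusted p under 0.05 of that list, at -0.43 (95% interval -0.86 to -0.00). Stmn1, a regulator of microtubules in growing neurites, had 0.78, with -0.11 within the lower and 1.01 within the higher replicate numbers, and 0.45 without replicate 5 of AA_5M_HR.

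Neuropeptides had mostly positive values. Of 13 tested members 10 were above 0 with a median of 0.20, and 2 had an unadjusted p under 0.05, both higher (1.65% of all genes). The median was 0.062 without replicate 6 of AA_5M_HR. Tac1, the precursor of substance P, had 234 to 381 CPM (median 269) at 2 months and 275 to 404 CPM (median 319) at 5 months, which gave 0.20 (95% interval 0.05 to 0.36). Adcyap1, the precursor of the peptide PACAP, had 0.31 (95% interval 0.04 to 0.57). Calca, which encodes calcitonin gene-related peptide, had 0.20 (95% interval -0.02 to 0.42). The list median was 0.45 after H/R, or 0.26 without replicate 6 of AA_5M_HR, and -0.06 in normoxia, and within the lower and higher replicate numbers the median was -0.19 and 0.39.

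Immune genes differed in sign and size. All 11 members of the MHC class I list were above 0, where 51.9% of all genes were, with a median of 0.13, and 2 had an unadjusted p under 0.05, both higher (1.65% of all genes). B2m, the light chain of class I molecules, had 0.29 (95% interval 0.08 to 0.50), and H2-D1, a heavy chain, had 0.18. Ccl2, a chemokine that draws monocytes, had 0.70 (95% interval 0.28 to 1.13), and C3, the central complement component, had 0.41 (95% interval 0.02 to 0.80). Of 16 macrophage markers 13 were above 0 with a median of 0.16, and Fcgr3, an Fc receptor, was the only one with an unadjusted p under 0.05 (0.36). Xaf1, an interferon-induced gene, had -0.49 (95% interval -0.87 to -0.11), the lowest value of 24 interferon-stimulated genes. Of these 16 were above 0 and 8 below, with a median of 0.05.

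Of 10 genes of fatty acid synthesis 6 were above 0 and 4 below with a median of 0.02. At an unadjusted p under 0.05 there were 2, both higher (1.65% of all genes). These were Scd1, a desaturase of fatty acids (0.31, 95% interval 0.10 to 0.51), and Acaca, which makes malonyl-CoA (0.36, 95% interval 0.09 to 0.64). Acaca had 0.73 in normoxia, with the smallest p there (edgeR adjusted p = 0.137), and 0.03 after H/R, and the test of that difference gave -0.70 (SE 0.226, edgeR adjusted p = 0.49). Cholesterol synthesis had a median of 0.06 over 16 genes with 0 at an unadjusted p under 0.05 by edgeR. Of the immediate early genes, which respond within minutes to activity or handling, 9 of 10 were above 0, and Fos and Fosb had 0.48 (95% interval 0.13 to 0.83) and 0.53 (95% interval 0.07 to 0.99). Lep, the adipocyte hormone leptin, had the largest value of the named genes at 2.27 (SE 0.728, 95% interval 0.77 to 3.77), and this rested on 1 library. Replicate 1 of AA_5M_HR had 31.7 CPM of Lep where the other 24 libraries had 0.0619 to 4.24 CPM, and without it the value was 0.56. Adipocyte markers as a whole had a median of 0.37 with 8 of 9 above 0. The summed adipocyte level was 54.5 to 344 CPM at 2 months and 36.6 to 406 CPM at 5 months, and the part of fat tissue in the value of Lep was not tested. Lep had 3.44 within the lower and 0.46 within the higher replicate numbers.

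Within each treatment the age comparison also called 0 genes by edgeR. In normoxia 400 of 15161 genes had higher values at an unadjusted p under 0.05 (2.64%) and 266 lower ones (1.75%), and DESeq2 called 37. After H/R 404 of 15272 genes had higher values (2.65%) and 381 lower ones (2.49%), and DESeq2 called 42. Across 15087 genes the log2 fold changes of age in the different mice of the treatments had a Pearson r of -0.224 and the same sign in 42.1% of genes, a description across genes, which are not independent replicates. The difference of the age effect between treatments was tested in its own term, here given as the age difference after H/R minus that in normoxia. It called 0 of 15607 genes by edgeR (smallest adjusted p 0.110), with 995 genes at an unadjusted p under 0.05 (6.38%), and DESeq2 called 15.

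**Figure D4:**
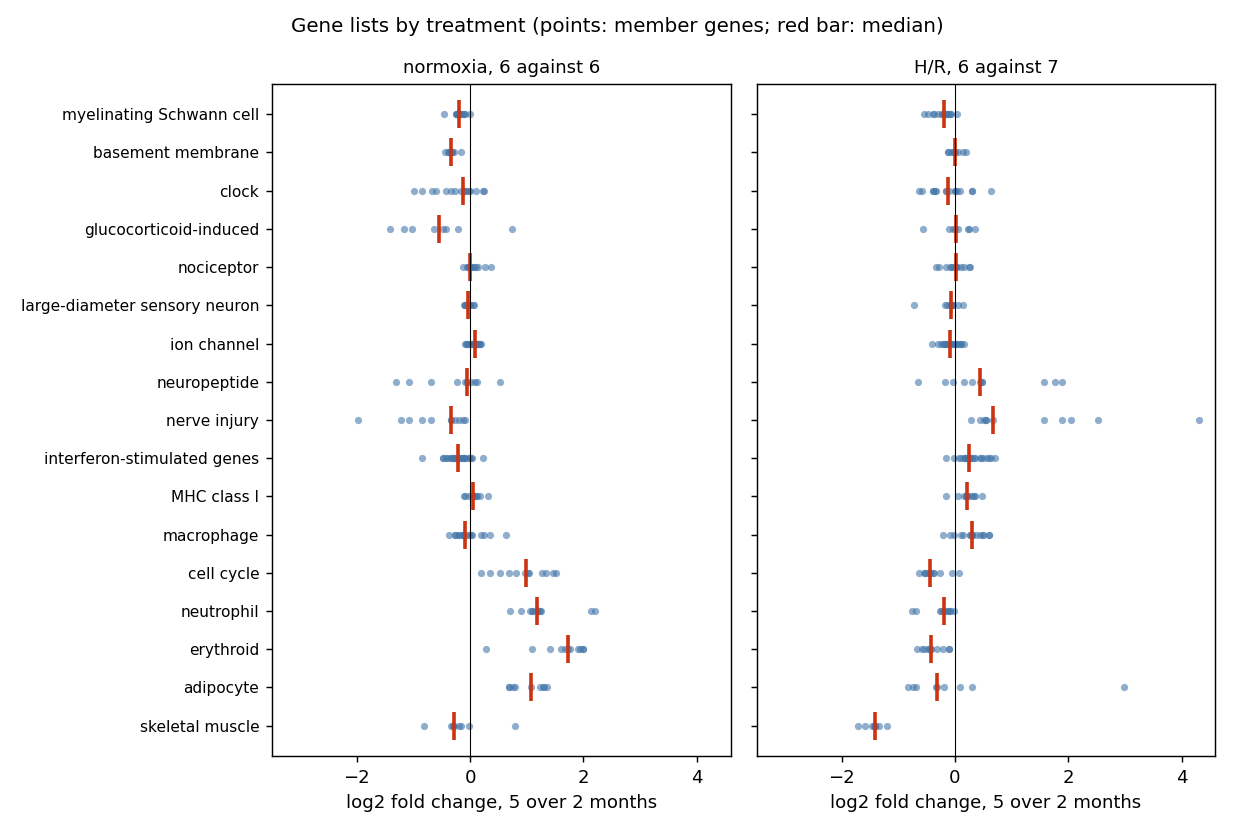
Log2 fold change of 5 over 2 months for the genes of 17 lists (points) with the list median (red bar), in normoxia on the left and after H/R on the right. The myelinating Schwann cell median was -0.19 on both sides, while nerve injury genes had -0.34 and 0.67 and erythroid genes 1.72 and -0.43.

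Genes of nerve injury, which sensory neurons switch on after axon damage, had values of opposite sign in the treatments. In normoxia all 11 tested members were below 0 with a median of -0.34 and 0 at an unadjusted p under 0.05 by edgeR (background 4.39%), and without replicate 3 of AA_2M_Norm the median was -0.079. After H/R all 11 were above 0 with a median of 0.67, and 10 had an unadjusted p under 0.05 (background 5.14%). In the test of the difference 9 of 11 had an unadjusted p under 0.05, all positive (background 3.02%), with a median of 0.93, and none passed the adjusted test. Gal, Npy and Vip, of which Vip was not tested, belong to the neuropeptide list as well. The values after H/R depended in part on 1 library. Without replicate 6 of AA_5M_HR the median was 0.37 with 7 members at an unadjusted p under 0.05, and the median of the difference was 0.64. Within the lower replicate numbers of both treatments together the list median for age was -0.13. Within the higher numbers, which are mostly H/R libraries, it was 0.73.

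Sprr1a, a small proline-rich protein first known from skin and made by sensory neurons after axon injury, is one of 3 genes the study names. Its window before the start (chr3:92485882-92486131, GRCm38.p6, minus strand) is shown because AP-1, the complex of Jun, Fos and Atf3 family proteins, binds the letters TGACTCA and Atf3 is a member of the same list. On the strand of the gene both matches, in capitals, read as the reverse complement of these letters.
Sprr1a: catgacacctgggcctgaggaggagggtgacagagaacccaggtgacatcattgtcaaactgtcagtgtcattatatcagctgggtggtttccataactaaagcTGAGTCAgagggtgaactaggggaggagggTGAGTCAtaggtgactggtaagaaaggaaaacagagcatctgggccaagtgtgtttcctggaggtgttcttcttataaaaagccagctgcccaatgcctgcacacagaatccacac

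The matches begin 146 and 116 bases before the start, and of all windows searched on both strands 4.46% held TGACTCA and 0.167% held it 2 or more times. Sprr1a had 1.395 to 59.7 CPM (median 5.02) in AA_2M_Norm, 0.573 to 16.5 CPM (median 2.52) in AA_5M_Norm, 0.532 to 6.93 CPM (median 0.904) in AA_2M_HR and 1.10 to 124 CPM (median 20.1) in AA_5M_HR. A few libraries made the upper end of each group, 2 in AA_2M_Norm and 1 in each of the others, and after H/R 5 of 6 older libraries lay above every young one. The log2 fold change of age was 1.31 over both treatments (SE 1.17, 95% interval -1.10 to 3.72), -1.97 in normoxia and 4.30 after H/R. Within the lower replicate numbers it was 0.066 and within the higher numbers 4.16. The difference between treatments was 6.28 (SE 1.42, edgeR adjusted p = 0.294), and it was 5.28 without replicate 6 of AA_5M_HR and 5.36 without replicate 3 of AA_2M_Norm.

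Atf3 and Gap43 of the nerve injury list also had positive differences, and so did Nts, Calca and Fabp7, which are not in that list. Atf3, the transcription factor that marks injured sensory neurons, had -0.84 in normoxia and 2.06 after H/R, a difference of 2.90 (SE 0.772, edgeR adjusted p = 0.37), and for age over both treatments it had -0.17 within the lower and 2.18 within the higher replicate numbers. Nts, the precursor of neurotensin, had a difference of 3.07 and Gap43, a growth cone protein, had 0.63. Calca had 1055 to 1443 CPM (median 1230) in AA_2M_HR and 1337 to 2399 CPM (median 1702) in AA_5M_HR, and the difference between treatments was 0.57 (95% interval 0.18 to 0.95). Fabp7, a lipid-binding protein of satellite glia, had -0.12 in normoxia and 0.93 after H/R, a difference of 1.048 (SE 0.311).

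The other 2 genes that the study names are serine protease inhibitors. Serpina3g had 45.4 to 117 CPM (median 90.8) at 2 months and 75.4 to 123 CPM (median 100.2) at 5 months, and its log2 fold change was 0.22 (95% interval -0.01 to 0.45), with 0.33 within the lower and -0.057 within the higher replicate numbers. Serpina1e, an alpha-1 antitrypsin gene with near-identical copies and thus uncertain, had 0.78 (95% interval -0.60 to 2.15), and it ranged from -0.039 without replicate 2 of AA_5M_HR to 1.57 with another library left out. Within the lower and higher replicate numbers it had 1.14 and -0.99. It is made in liver. The summed level of 12 hepatocyte markers was 3.42 to 591 CPM over the libraries, with medians of 6.22 and 6.99 CPM at 2 and 5 months, and its part in the value of Serpina1e was not tested.

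Blood cell genes had values of the opposite signs to the injury genes. Of 11 erythroid genes all were above 0 in normoxia, with a median of 1.72 and 10 at an unadjusted p under 0.05 (background 4.39%). After H/R all 11 were below 0, with a median of -0.43 and 0 at such a p by edgeR (background 5.14%). Without replicate 7 of AA_2M_HR the H/R median was -0.076. In the test of the difference 10 of 11 had an unadjusted p under 0.05, all negative (background 3.36%), and none passed the adjusted test. The summed erythroid level was 59.9 to 101 CPM (median 88.4) in AA_2M_Norm, 78.1 to 322 CPM (median 168) in AA_5M_Norm, 79.6 to 446 CPM (median 133) in AA_2M_HR and 95.4 to 241 CPM (median 179) in AA_5M_HR, and no marker was at 0 in a group. After H/R the median of this sum was thus higher at 5 months, while the fitted values of all 11 genes were below 0. Slc4a1, the anion exchanger of red cells, had a difference between treatments of -2.15 (SE 0.662, edgeR adjusted p = 0.449). Within the lower and higher replicate numbers the erythroid median for age was 1.053 and -0.71.

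Neutrophil genes had a median of 1.18 in normoxia with 11 of 11 above 0. At an unadjusted p under 0.05 there were 9 of 11 (background 4.39%), or 2 without replicate 3 of AA_5M_Norm. After H/R their median was -0.18, and it was 0.13 without replicate 7 of AA_2M_HR. Within the lower and higher replicate numbers the neutrophil median for age was 0.58 and -0.23. Mpo, myeloperoxidase of neutrophil precursors, had 2.13 in normoxia and -0.69 after H/R. Genes of the cell cycle had medians of 0.99 in normoxia and -0.44 after H/R. In normoxia 9 of 12 tested had an unadjusted p under 0.05 (background 4.39%), and the median was 0.59 without replicate 3 of AA_5M_Norm. After H/R the median was -0.15 without replicate 7 of AA_2M_HR. Mki67, which marks dividing cells, had 1.47 and -0.54, and the cell cycle median for age was 0.57 within the lower and -0.72 within the higher replicate numbers. Adipocyte genes had 1.07 in normoxia, with 8 of 9 at an unadjusted p under 0.05 (background 4.39%), or 3 without replicate 2 of AA_2M_Norm. After H/R they had -0.32, from -0.68 without replicate 1 to -0.077 without replicate 2 of AA_5M_HR. Skeletal muscle genes had -0.29 in normoxia, or -0.024 without 1 unnumbered library of AA_2M_Norm, and -1.42 after H/R. After H/R 8 of 9 had an unadjusted p under 0.05 (background 5.14%), and 3 of 9 without replicate 2 of AA_2M_HR. The part of blood, marrow, fat or muscle in the nearby values was not tested.

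Interferon-stimulated genes had a median of -0.21 in normoxia with 21 of 24 below 0, and of 0.26 after H/R with 22 of 24 above 0. In the test of the difference 8 of 24 had an unadjusted p under 0.05, all positive (background 3.02%), and with 1 library left out this count ran from 6, without replicate 4 of AA_2M_Norm, to 15. Ifit1, an antiviral RNA-binding protein, had 13.4 to 18.7 CPM (median 15.9) in AA_2M_HR and 19.1 to 27.1 CPM (median 22.1) in AA_5M_HR, without overlap, and 14.4 to 26.7 CPM and 15.0 to 19.7 CPM in the young and old normoxia groups, which overlapped. The difference between treatments was 0.88 (SE 0.193, edgeR adjusted p = 0.277), and Ifit1 was called by DESeq2, with surrogate variables, with the replicate number split as a term, and without 1 or all 4 of the unnumbered libraries.

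**Figure D5:**
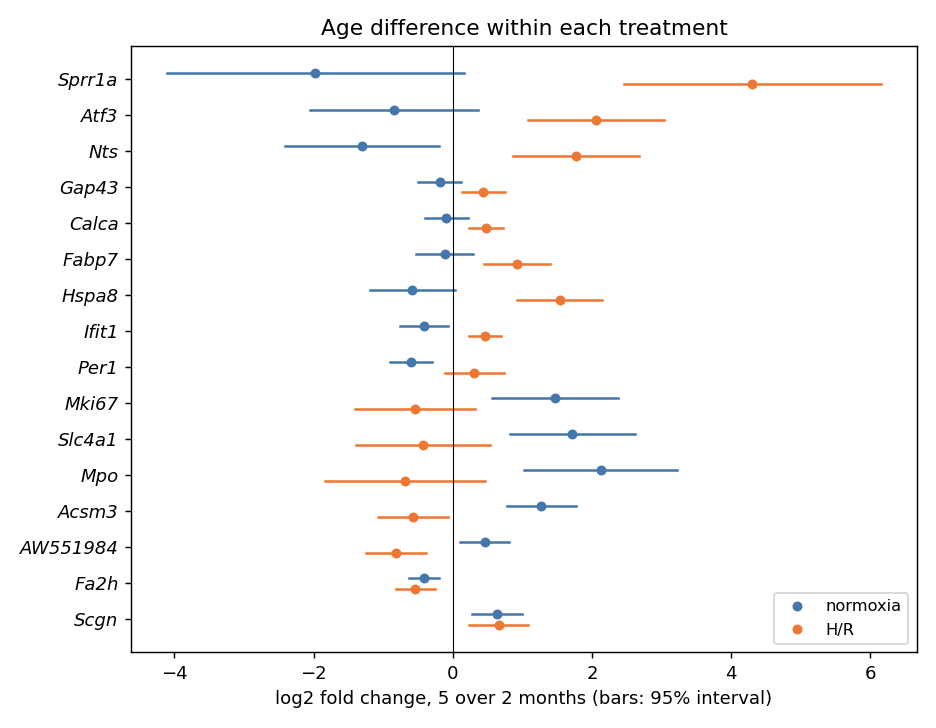
Log2 fold change of 5 over 2 months with its 95% interval for 16 genes, in normoxia (blue) and after H/R (orange). Sprr1a had -1.97 in normoxia and 4.30 after H/R and Mpo had 2.13 and -0.69, whereas Fa2h (-0.41 and -0.54) and Scgn (0.64 and 0.66) had like values in both.

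The smallest p of the difference between treatments belonged to Acsm3, a mitochondrial acyl-CoA synthetase. It had 0.425 to 0.949 CPM (median 0.616) in AA_2M_Norm and 1.22 to 2.25 CPM (median 1.57) in AA_5M_Norm, without overlap, and 0.646 to 1.78 CPM and 0.588 to 0.987 CPM in the young and old H/R groups, which overlapped. The difference was -1.84 (SE 0.325, edgeR adjusted p = 0.11). Hspa8, the constitutive heat shock cognate chaperone, had 44.3 to 173 CPM (median 123) in AA_2M_HR and 243 to 365 CPM (median 300.4) in AA_5M_HR, without overlap, and 113 to 261 CPM and 39.7 to 171 CPM in the young and old normoxia groups. Its difference was 2.12 (SE 0.431, edgeR adjusted p = 0.247). Hspa8 and the ribosomal gene Rpl35a, which had a difference of 5.24, have processed copies in the genome, and Olfr920 (2.96) and Ifi202b (6.81) belong to families with near-identical members, so these values are uncertain.

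The age difference in control mice was set beside that in the sickle mice, named HbSS-BERK, which share no library with it. In HbSS-BERK mice 0 of 15974 genes passed the adjusted test for age by edgeR, in a fit of all 8 groups. There 1597 had an unadjusted p under 0.05 (10%, with 4.18% higher and 5.82% lower). For age in control mice 626 genes did in that fit. The control values set beside sickle values here are from the fit of the 25 control libraries. Across 15606 genes the log2 fold changes of age in the genotypes had a Pearson r of -0.00983 and the same sign in 50% of genes. The difference of the age effect, HbAA-BERK minus HbSS-BERK in a fit of all 8 groups, called 0 of 15974 genes by edgeR (smallest adjusted p 0.407) and 0 by DESeq2, with 949 genes at an unadjusted p under 0.05 (5.94%; 3.98% positive and 1.97% negative).

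The myelin list had negative values in both genotypes. In HbSS-BERK mice all 15 genes were below 0 with a median of -0.35, and 10 had an unadjusted p under 0.05, all lower (background 5.82%). Fa2h had -0.47 in control and -0.48 in sickle mice, with a difference of 0.01 (95% interval -0.38 to 0.40). None of the 15 list members had an unadjusted p under 0.05 in the test of the difference. The basement membrane list had medians of -0.19 and -0.30 and the clock list -0.11 and -0.10, with 0 members of either at such a p.

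Other genes had unlike values. Ddr2, a collagen receptor, had the smallest p of the difference, at 0.54 (SE 0.114, edgeR adjusted p = 0.407), with 0.17 in control and -0.36 in sickle mice. Siglec1, a receptor of resident macrophages, had a difference of 1.17, and the macrophage list had a median of 0.16 in control and -0.37 in sickle mice with 8 of 16 members at an unadjusted p under 0.05 for the difference (background 5.94%). Aspa, which breaks down N-acetylaspartate, had 0.83. Sprr1a had 4.46, with 1.31 and -3.29. The nerve injury list had 8 of 11 members at an unadjusted p under 0.05 for the difference (background 5.94%).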

How the data were processed

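The deposited counts are whole reads per gene, which the authors obtained with featureCounts after trimming (Trimmomatic) and alignment to mm10 (TopHat 2.0.13, Bowtie 2.2.4.0). The annotation, the strand setting and the handling of reads with several matches are not given in the sources used here, nor is the hour of day at which tissue was taken. Cuffquant and Cuffnorm gave the authors' FPKM values, whose library scaling is not given in the sources used here. Of 24420 rows, 27 carry a date in place of a gene name (0.238% to 0.257% of reads) and were left out. Per-sample values of 1 column were not used, since its age fits no group, and 4 control columns that repeat a replicate number were used as group members only.

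Counts were tested with edgeR 4.0.16 (quasi-likelihood, TMM, filterByExpr, Benjamini-Hochberg over all genes tested) in R 4.3.3, after the scripts were tested on simulated data. The fits took the 4 control groups with treatment as a term, each treatment alone, and 1 mean per group for the difference between treatments. All 8 groups were fitted for age in HbSS-BERK mice and for the difference between genotypes. A standard error is the log2 fold change over the root of F. CPM values use TMM-scaled library sizes. DESeq2 1.42.0, limma 3.58.1 on log2(FPKM + 1) and log2(FPKM + 0.1), and sva 3.50.0 were alternatives, beside those in the closing section. Intervals cover the spread between libraries, and the labels give no litter, batch or day, so the p-values measure the spread between these samples.

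Every pair of replicates differed by more than sampling noise. Same-numbered libraries in normoxia deviated together (r 0.182 to 0.43, 4 pairs), and after H/R not all did (-0.478 to 0.463, 6 pairs). Over all 26 same-numbered pairs of different groups, which include pairs across treatments, the mean r was 0.157. It was 0.227 for libraries of unlike number on one side of the split.

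The comparison, the genes and the 46 gene lists were chosen with earlier results of these data known. The rule for named genes took called genes only (up to 12 per direction for age, 3 within a treatment, 5 for a difference, 4 per list) and the most abundant member of each list. Since 0 were called by edgeR, other named genes were chosen after their values were seen, among the smallest p, the largest values and known list members. Lists are described by counts and medians without a test. Some genes are not reported here by name.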

Additional observations from a re-analysis of the deposited data

Results flagged for a closer look

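In 96 sets of libraries, the 4 groups for each of 23 genes and for the read total, single libraries stood far from the rest of their group 7 times. The rule used flags about 1 in 20 sets of normally distributed values. Whether CPM values are so distributed was not tested, and named genes were chosen after their values were seen. The 7 flags are thus a description and are not set against a chance rate. In AA_5M_HR replicate 6 was the highest in 3 of these, with 22.9 CPM of Per2 (others 9.97 to 14.02), 2399 CPM of Calca (others 1337 to 1731) and 124 CPM of Sprr1a (others 1.10 to 37.7). Sprr1a also had 6.93 CPM in replicate 1 of AA_2M_HR (others 0.532 to 1.47) and 16.5 CPM in replicate 1 of AA_5M_Norm (others 0.573 to 3.83). Ciart had 4.39 CPM in replicate 4 of AA_5M_Norm (others 0.748 to 1.27). Acsm3 had 2.25 CPM in 1 unnumbered library of AA_5M_Norm (others 1.22 to 1.60).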

How the results depend on the processing

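For age over both treatments 0 genes were called under RLE, without a filter, at a mean of at least 1 CPM, with all 8 groups in 1 fit, without the unnumbered libraries, without libraries over 20 CPM of Alb, under limma on FPKM, and within the higher replicate numbers, the last chosen after seeing the data. DESeq2 called 3 genes (Fa2h, Pisd-ps3, Scgn), the number split as a term 1 (Higd1a), a Y-linked covariate 1 (Fa2h), the lower numbers alone, chosen after seeing the data, 3 (Bmp5 and Hes1 among them), and 2 surrogate variables 34, with 14 higher and 20 lower. In normoxia DESeq2 called 37 and surrogate variables 68, after H/R 42 and 47, and for the difference between treatments 15 and 78. There the fit of all 8 groups called 1 (Ifi202b), and the split term and leaving out the unnumbered libraries 1 each (Ifit1). For the difference between genotypes surrogate variables called 9. The cause of these differences was not tested. With 1 library left out the counts ranged from 0 to 2 over both treatments, 0 to 4 in normoxia, 0 to 2 after H/R and 0 to 2 for the difference between treatments. The replicate block, which leaves out the unnumbered libraries, called 0 genes in all 5 comparisons and so changed no call. The sign of a named gene turned for Col1a1 (-0.19, 0.051 with the replicate block), Bdnf (0.20, -0.0088 with the block), Npas2 (0.12, -0.017 without Alb-rich libraries), Ddx3y (0.10, -0.012 with the Y-linked covariate), Scn10a (0.01; -0.048 with the block, -0.0098 without unnumbered libraries, -0.016 with the Y-linked covariate, -0.038 without Alb-rich libraries, -0.022 to 0.041 with 1 library left out) and Serpina1e (0.78, -0.039 to 1.57 with 1 library left out). The median over all genes stayed within 0.0105 of 0 under every setting. With 12 and 13 libraries, 86.5% of genes had an interval within 1.5-fold.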
